A study of Mus musculus with 15 samples.

Results

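Scavenger receptors and the receptors and bridging proteins of efferocytosis, the uptake of dying cells, were examined in RNA-seq of tumor-associated macrophages (TAMs). The group comprised Timd4, Mertk, Axl, Gas6, Stab1, Cd163, Marco, Msr1, Cd36 and Cd5l, the rows of the expression table with one of these symbols, 10 of the 55335 genes listed. They were chosen by name with earlier results of these data known, and each had 1 row in the table. TAMs were sorted from orthotopic HCC (hepatocellular carcinoma grown in the liver) of C57BL/6 mice. The tumors came from Hepa1-6, a mouse hepatoma line that was modified to express luciferase and carried a lentivirus in every group. The groups were TAMs from control tumors, from tumors with miR-144 overexpression in HCC cells, and from tumors with miR-451a overexpression in HCC cells, with 5 samples each by the labels, more than the study states for its RNA-seq panels. All labelled samples were used. The groups are called control, miR-144 and miR-451a TAMs here. The miRNAs were overexpressed in the hepatoma cells, not in the macrophages. All samples carry the description untreated, and the age of the mice was not given in the sources used here. Per the study's methods, mice with these liver tumors were killed 3 weeks after the cells were injected. All groups rest on 1 hepatoma line. The labels number the samples 1 to 5 but do not say that they came from separate mice, so p-values measure only the spread between these samples, which may be technical.

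The miRNAs that define the groups lie side by side on mouse chromosome 11, and RefSeq gives both arms of miR-144 and the single mature product of miR-451a (GRCm38.p6, plus strand). The labels name miR-144 without an arm. The sequences are shown because the groups differ by these molecules, with bases 2 to 8, the seed, in capitals. The 3 seeds differ from each other.
mmu-miR-144-3p at chr11:78073047-78073066: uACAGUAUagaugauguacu
mmu-miR-144-5p at chr11:78073010-78073032: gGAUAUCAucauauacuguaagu
mmu-miR-451a at chr11:78073186-78073207: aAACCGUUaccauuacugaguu

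Macrophages recognise dying cells through phosphatidylserine, a lipid that becomes exposed on their surface. Timd4 and the stabilins bind it directly, whereas the receptor tyrosine kinases Mertk and Axl reach it through bridging ligands such as Gas6. Scavenger receptors such as Cd36, Msr1 and Marco take up oxidised lipoproteins, bacteria and debris, and Cd163 takes up haptoglobin-bound hemoglobin. Many of these genes are known as markers of resident macrophages of the liver and spleen or of alternatively activated macrophages.

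Levels are given as FPKM, fragments per kilobase of transcript scaled to the mapped fragments of the sample, as deposited by the authors. Differences between groups are on the log2(FPKM + 1) scale, with the standard error and an adjusted p from limma (Benjamini-Hochberg over the 29540 genes above 0 in at least 1 sample), and a gene was called when the adjusted p was under 0.05. This scale understates the change of low genes. The spacing of low values, which fall on steps of 1 fragment, implied a depth of about 23.8 to 28.1 M fragments in control samples, 18.0 to 27.4 M in miR-144 samples and 15.7 to 30.6 M in miR-451a samples. These depths are approximate, since 35.3% to 48.5% of low values per sample lay on such a step, where 10% would by chance. Intervals and floors from them cover counting error only. Macrophage genes were present in every group, where 8 of 8 markers averaged 1 FPKM or more. The hepatocyte genes Alb, Apoa1 and Ttr, the T cell genes Cd3e and Cd3g, and Clec4f, a gene that defines Kupffer cells, were listed at 0 in all 15 samples.

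Of the 10 genes, 9 were higher and 1, Cd36, was lower in TAMs of both miRNA groups than in control TAMs. On the log2(FPKM + 1) scale Stab1 had the largest rise of the 10 in both comparisons, and Cd5l, Axl, Gas6 and Cd163 followed. The order depends on the scale. The ratio of mean FPKM to control was 7.25 and 7.99 for Stab1 and 8.78 and 7.99 for Cd5l, whose means are raised by samples 3 and 4 of each miRNA group, and it was 5.94 and 6.37 for Cd163, 5.33 and 5.26 for Timd4 at its low level, 4.58 and 4.59 for Axl and 3.43 and 3.60 for Gas6. Mertk, Msr1, Timd4 and Marco rose by less on the log2(FPKM + 1) scale. The groups did not overlap for 9 genes in miR-144 against control TAMs (all but Timd4) and for 10 in miR-451a against control TAMs. In a bulk sample, fewer cells of a type and less RNA per cell cannot be told apart, so each level is that of the sorted population.

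Changes of this kind were common in these data. Of all genes above 0, 23.1% were called higher and 9.65% lower in miR-144 TAMs, and 24.5% and 9.69% in miR-451a TAMs. Among the 11419 genes that averaged 1 FPKM or more over all samples (called expressed genes below), a limit passed by 8 of the 10, 44.1% were called higher and 18.6% lower in miR-144 TAMs, and 45.3% and 18.8% in miR-451a TAMs. Groups that did not overlap were found with higher values for 19.0% and with lower values for 7.87% of genes in miR-144 TAMs, and for 19.9% and 7.97% in miR-451a TAMs. The median difference of the 10 genes was 1.17 for miR-144 and 1.23 for miR-451a, against 0.01 and 0.02 over all genes above 0 and 0.13 and 0.14 over expressed genes. Since the 10 genes were chosen with earlier results of these data known, this contrast is a description and no test. The direction of each of the 10 genes against control was kept under every scaling tried. Other gene counts were sensitive to scaling. Of the expressed genes called, 70.3% (miR-144) and 70.7% (miR-451a) were higher, and this share was 53.7% and 53.6% after median centring, 53.7% and 53.6% after quantile normalization and 76.7% and 77.7% after rescaling to TPM.

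**Figure D1:**
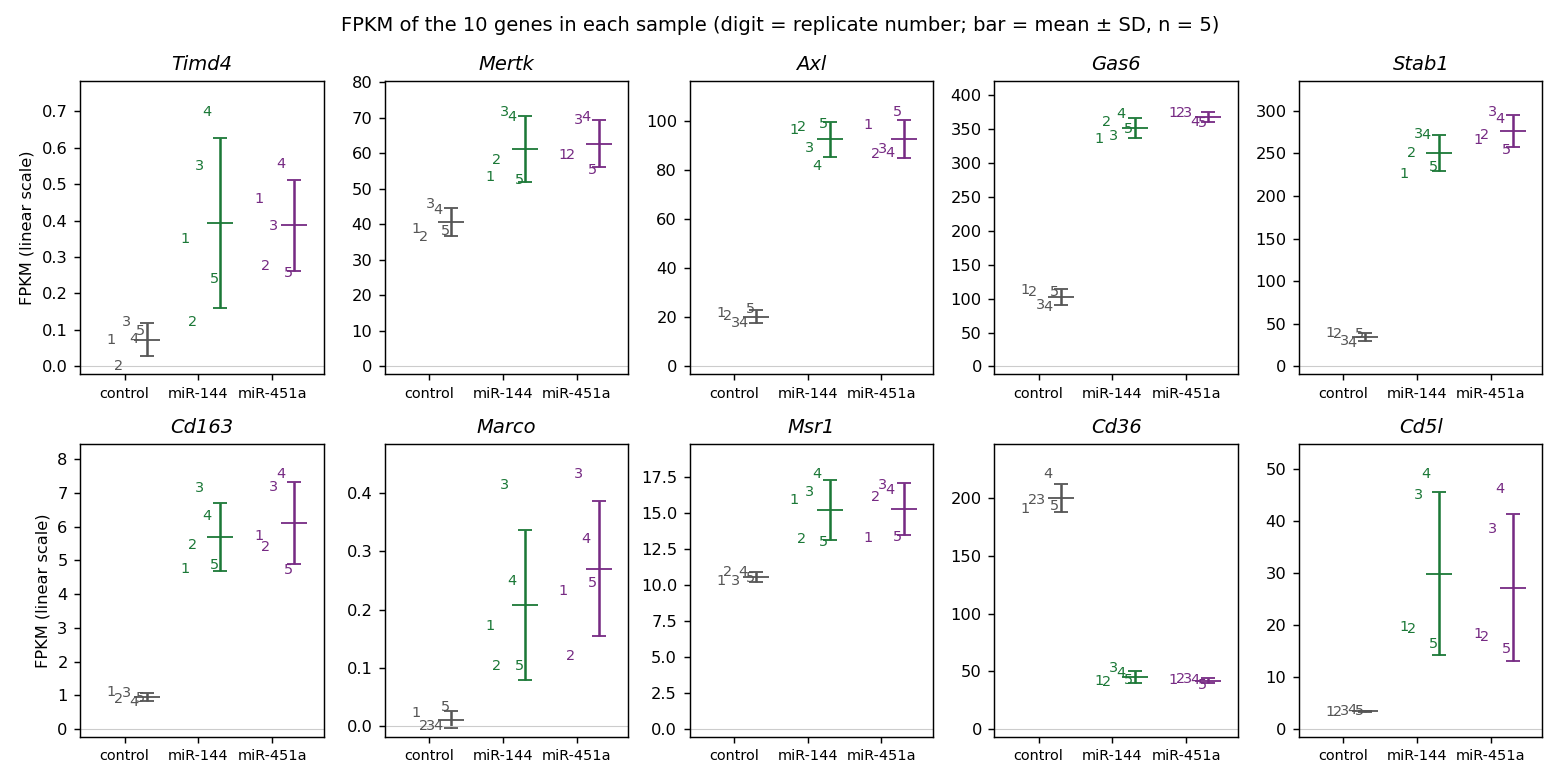
FPKM on a linear scale for each of the 10 genes in control, miR-144 and miR-451a TAMs. Each digit is the value of the sample with that replicate number and each bar is the mean ± SD (n = 5); Cd36 sits near 200 in control TAMs and between 37.96 and 52.74 in the others, while the other genes lie higher in the miRNA groups.

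Gas6, the secreted ligand of the receptors Mertk and Axl, had 113.2, 110.0, 91.1, 86.9 and 109.7 FPKM in the control samples 1 to 5. Its level was 334.5, 359.9, 339.5, 371.1 and 350.0 FPKM in miR-144 samples and 373.1, 373.7, 372.7, 360.1 and 358.2 FPKM in miR-451a samples. All 10 samples of the miRNA groups lay above all control samples. The difference from control was 1.78 ± 0.07 (SE, n = 5 per group) in miR-144 TAMs (limma, adjusted p = 4.04e-11) and 1.85 ± 0.07 in miR-451a TAMs (limma, adjusted p = 2.51e-11), and mean FPKM was 3.43-fold and 3.60-fold that of control. Gas6 became the most abundant of the 10 transcripts per length in both miRNA groups, with 351.0 ± 14.9 and 367.6 ± 7.73 FPKM (SD, n = 5).

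Axl, a receptor tyrosine kinase that binds Gas6, had 21.8, 20.4, 17.6, 17.5 and 23.6 FPKM in the control samples. In miR-144 samples it had 96.3, 97.3, 88.7, 81.6 and 98.5 FPKM, and in miR-451a samples 98.1, 86.3, 88.4, 86.8 and 103.7 FPKM. The lowest value of the miRNA groups was thus above 3 times the highest control value. The difference was 2.15 ± 0.09 (SE, n = 5 per group) in miR-144 TAMs (limma, adjusted p = 6.93e-11) and 2.15 ± 0.09 in miR-451a TAMs (limma, adjusted p = 6.4e-11).

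Mertk, the Gas6 receptor that serves clearance of apoptotic cells in resting macrophages, was already high in control TAMs, with 38.8, 36.5, 45.6, 44.1 and 38.0 FPKM. It had 53.4, 58.2, 71.7, 70.3 and 52.6 FPKM in miR-144 samples and 59.4, 59.4, 69.3, 70.2 and 55.3 FPKM in miR-451a samples. The groups did not overlap, and the highest control sample had 45.6 FPKM against 52.6 and 55.3 FPKM in the lowest miR-144 and miR-451a samples. Mertk rose by 0.57 ± 0.10 (SE, n = 5 per group) in miR-144 TAMs (limma, adjusted p = 0.000406) and by 0.61 ± 0.10 in miR-451a TAMs (limma, adjusted p = 0.000207).

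The balance of these receptors differed between the groups. The ratio of Mertk to Axl in FPKM had a median of 1.79 in control samples (range 1.61 to 2.59), of 0.598 in miR-144 samples (0.534 to 0.862) and of 0.689 in miR-451a samples (0.534 to 0.810). Mertk exceeded Axl in every control sample and was below Axl in every sample of the miRNA groups. The ratio of Gas6 to Axl had medians of 5.18, 3.70 and 4.15 in control, miR-144 and miR-451a samples, so ligand and receptor moved more nearly together than the receptors did.

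Tyro3, the other receptor of this family, was at a mean of 0.142 FPKM in control, 0.302 in miR-144 and 0.313 in miR-451a TAMs, and was called higher in both comparisons. Pros1, its other bridging ligand, was at 18.2, 18.4 and 18.5 FPKM and was not called, with differences of 0.01 (limma, adjusted p = 0.896) and 0.02 (limma, adjusted p = 0.78).

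Stab1 encodes stabilin-1, a scavenger receptor of macrophages and sinusoidal endothelium that binds phosphatidylserine and matrix proteins. It had 38.8, 38.0, 30.3, 27.9 and 38.0 FPKM in control samples. In miR-144 samples it had 226.1, 250.5, 272.6, 271.3 and 233.8 FPKM, and in miR-451a samples 265.8, 271.9, 299.1, 290.3 and 254.1 FPKM. Stab1 was level with Mertk in control TAMs, where their ranges overlapped, and it ranked just below Gas6 in the miRNA groups. Its difference from control was 2.83 ± 0.09 (SE, n = 5 per group) in miR-144 TAMs (limma, adjusted p = 8.91e-12) and 2.97 ± 0.09 in miR-451a TAMs (limma, adjusted p = 4.94e-12), with mean FPKM 7.25-fold and 7.99-fold that of control.

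Stab2, the endothelial relative of Stab1, had means of 0.925, 0.807 and 0.866 FPKM and was called in neither comparison. Of the 9 liver endothelial markers Clec4g was listed at 0 in all samples, and their summed level was 12.3 to 14.2 FPKM in control, 5.76 to 6.81 in miR-144 and 5.77 to 7.15 in miR-451a samples. Oit3 made up most of the control sum, at a mean of 9.30 against 1.16 and 0.893 FPKM, whereas Kdr (2.80 against 3.85 and 4.07 FPKM) and Gpr182 (0.0917 against 0.202 and 0.207 FPKM) were called higher in both comparisons. Their part in the Stab1 result was not tested.

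Timd4, the phosphatidylserine receptor Tim-4 of resident macrophages, was near the limit of detection. It had 0.0722, 0, 0.123, 0.0766 and 0.0960 FPKM in control samples, 0.349, 0.122, 0.551, 0.698 and 0.240 in miR-144 samples, and 0.459, 0.276, 0.386, 0.555 and 0.256 in miR-451a samples. These levels correspond to about 0 to 6.54 fragments per control sample, 4.78 to 34.7 per miR-144 sample and 13 to 36.9 per miR-451a sample. Only miR-144 sample 2 overlapped the control range. The difference was 0.36 ± 0.10 (SE, n = 5 per group) in miR-144 TAMs (limma, adjusted p = 0.00973) and 0.37 ± 0.10 in miR-451a TAMs (limma, adjusted p = 0.00849). Over replicates 1, 2 and 5 of each group alone, the miR-144 difference was 0.23 and was no longer called (limma, adjusted p = 0.109). This is no check of the Timd4 result. The subset was chosen after the data were seen and leaves out the highest Timd4 values of miR-144 TAMs, so a smaller difference was built in. It also has fewer samples.

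Cd163, the receptor for haptoglobin and hemoglobin complexes, had 1.10, 0.885, 1.06, 0.817 and 0.929 FPKM in control samples. It had 4.73, 5.46, 7.13, 6.30 and 4.85 FPKM in miR-144 samples and 5.70, 5.38, 7.16, 7.54 and 4.72 FPKM in miR-451a samples. No miRNA sample came near the control range. The difference was 1.76 ± 0.12 (SE, n = 5 per group) in miR-144 TAMs (limma, adjusted p = 2.03e-08) and 1.84 ± 0.12 in miR-451a TAMs (limma, adjusted p = 1.17e-08), with mean FPKM 5.94-fold and 6.37-fold that of control. Even so, its level in the miRNA groups was above that of only 45.6% (miR-144) and 47.6% (miR-451a) of expressed genes. Of all 50-base windows along its transcript, 0.091% recur in another annotated gene, and 0% did for the other 9 genes.

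Cd5l, also called AIM, encodes a secreted scavenger receptor cysteine-rich protein that supports macrophage survival. It was steady in control TAMs, with 3.27, 3.21, 3.45, 3.65 and 3.40 FPKM. In miR-144 samples it had 19.6, 19.3, 44.9, 48.9 and 16.4 FPKM, and in miR-451a samples 18.3, 17.6, 38.4, 46.1 and 15.3 FPKM. All 10 values were above the controls, but samples 3 and 4 of each miRNA group stood well above samples 1, 2 and 5. The difference from control was 2.66 ± 0.35 (SE, n = 5 per group) in miR-144 TAMs (limma, adjusted p = 2.36e-05) and 2.54 ± 0.35 in miR-451a TAMs (limma, adjusted p = 3.52e-05), against a standard error of at most 0.12 for the other 9 genes. Over replicates 1, 2 and 5 alone the differences were 2.18 and 2.07, given as a description, since this subset was chosen after the high Cd5l values of samples 3 and 4 were seen.

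Msr1, the class A scavenger receptor SR-A, had 10.3, 10.9, 10.2, 10.9 and 10.5 FPKM in control samples, 15.9, 13.2, 16.4, 17.7 and 13 in miR-144 samples, and 13.2, 16.1, 16.9, 16.6 and 13.4 in miR-451a samples. The control values spanned less than 1 FPKM and the miRNA groups lay wholly above them. The difference was 0.48 ± 0.09 (SE, n = 5 per group) in miR-144 TAMs (limma, adjusted p = 0.000527) and 0.49 ± 0.09 in miR-451a TAMs (limma, adjusted p = 0.00046).

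Marco, the other class A receptor here, with a collagen-like stalk, was at the floor in control TAMs, with 0.0220, 0, 0, 0 and 0.0321 FPKM. These are about 0 to 1.49 fragments per sample, at or under the floor of 3 fragments (0.0554 to 0.0654 FPKM) in 5 of 5 samples. It had 0.172, 0.103, 0.413, 0.248 and 0.103 FPKM in miR-144 samples and 0.232, 0.120, 0.433, 0.322 and 0.245 FPKM in miR-451a samples. All of these lay above the control values but rest on only about 3.57 to 18.9 fragments per sample. The difference was 0.25 ± 0.07 (SE, n = 5 per group) in miR-144 TAMs (limma, adjusted p = 0.0113) and 0.33 ± 0.07 in miR-451a TAMs (limma, adjusted p = 0.00177). Over replicates 1, 2 and 5 alone the miR-144 difference was 0.15 and was not called (limma, adjusted p = 0.0563). A smaller difference was built in there too, since the subset, chosen after the data were seen, leaves out the highest Marco values of miR-144 TAMs. No fold is given for Marco, since its control level was not above the floor.

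Cd36, the class B scavenger receptor for oxidised lipoproteins and long-chain fatty acids, moved the other way. It was the most abundant of the 10 transcripts in control TAMs, with 190.8, 198.4, 198.6, 220.7 and 193.0 FPKM. It had 41.9, 40.9, 52.7, 48.8 and 42.4 FPKM in miR-144 samples and 42.2, 43.1, 43.3, 42.4 and 38.0 FPKM in miR-451a samples. Every miRNA sample was below every control sample. Cd36 fell by 2.12 on the log2(FPKM + 1) scale (SE 0.07, n = 5 per group) in miR-144 TAMs (limma, adjusted p = 7.32e-12) and by 2.23 (SE 0.07) in miR-451a TAMs (limma, adjusted p = 3.97e-12), and mean FPKM was 0.226 and 0.209 of the control mean.

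**Figure D2:**
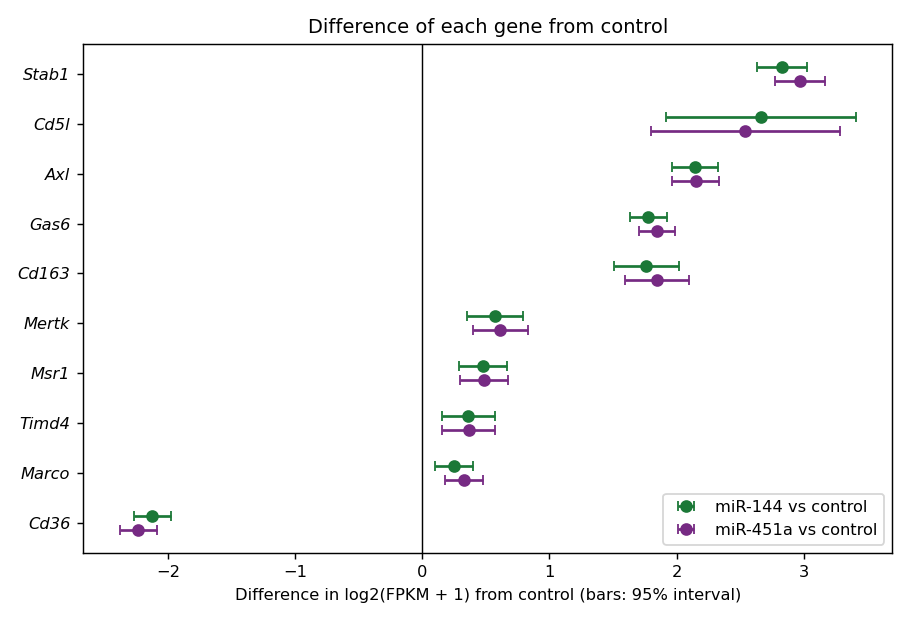
Difference in log2(FPKM + 1) of each gene from control TAMs, for miR-144 (green) and miR-451a (purple) TAMs, with 95% intervals from limma (n = 5 per group). The intervals of 9 genes lie above 0 and those of Cd36 below 0, those of Cd5l are the widest, and the intervals of both comparisons, which share the control samples, overlap for each gene.

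The order of the 10 genes by FPKM, which is per length, changed accordingly. In control TAMs it ran Cd36, Gas6, Mertk, Stab1, Axl, Msr1, Cd5l, Cd163, Timd4 and Marco, and only the neighbours Mertk and Stab1, and Timd4 and Marco, had overlapping ranges. In miR-144 TAMs it ran Gas6, Stab1, Axl, Mertk, Cd36, Cd5l, Msr1, Cd163, Timd4 and Marco. In miR-451a TAMs the order of means was the same as in miR-144 TAMs. Ranges of neighbours overlapped there for Cd36 and Cd5l, Cd5l and Msr1, and Timd4 and Marco in both groups, and for Mertk and Cd36 in miR-144 TAMs only. Cd36 moved from above 98.6% of the expressed genes in control TAMs to above 92.3% and 91.7%, and Cd5l from above 33.4% to above 87.8% and 86.5%.

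No difference was called between TAMs of the miR-451a and miR-144 tumors. None of the 10 was called in miR-451a against miR-144 TAMs (limma, lowest adjusted p = 0.909), and 0 had an unadjusted p under 0.05. Over all genes 0% were called and 1459 of 29540 had an unadjusted p under 0.05. The 95% intervals of the difference, miR-451a minus miR-144, bound what could have been missed. They ran from -0.08 to 0.21 for Gas6, from -0.26 to 0.04 for Cd36 and from -0.87 to 0.62, the widest, for Cd5l. For Stab1 the interval ran from -0.06 to 0.34 and for Axl from -0.18 to 0.18. For Marco it ran from -0.07 to 0.22, but at its levels, a mean of 0.208 and 0.270 FPKM, the pseudocount of 1 compresses differences, so this interval allows a much larger relative change than the same interval would for Gas6.

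Samples of 1 group also differed from each other in a shared way, which was noticed in the data and is given as a description. Samples 3 and 4 had the highest Cd5l values of each of the 3 groups. The same samples were the highest in both miRNA groups for 5 of the other 9 genes, Mertk, Stab1, Cd163, Marco and Msr1, and of these Mertk was so in all 3 groups. Over all genes above 0 this was so in both miRNA groups for 2.41%, and over expressed genes for 4.79%. In all 3 groups it was so for 0.545% of genes above 0. Axl ran the other way, with its lowest values in samples 3 and 4 of the control and miR-144 groups.

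Deviations from the group mean were compared across the 15 samples, which share their libraries across genes. They moved together most for Cd163 and Cd5l (Pearson r = 0.90), Mertk and Cd5l (r = 0.87), Gas6 and Stab1 (r = 0.84), and Mertk and Cd163 (r = 0.82). They moved in opposite directions for Axl and Mertk (r = -0.77) and Axl and Cd36 (r = -0.70). The Gas6 deviations had r = 0.01 with those of Cd5l. Those of Gas6 had r = 0.52 with its receptor Axl and r = -0.32 with its receptor Mertk. These are descriptions over 15 samples.

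**Figure D3:**
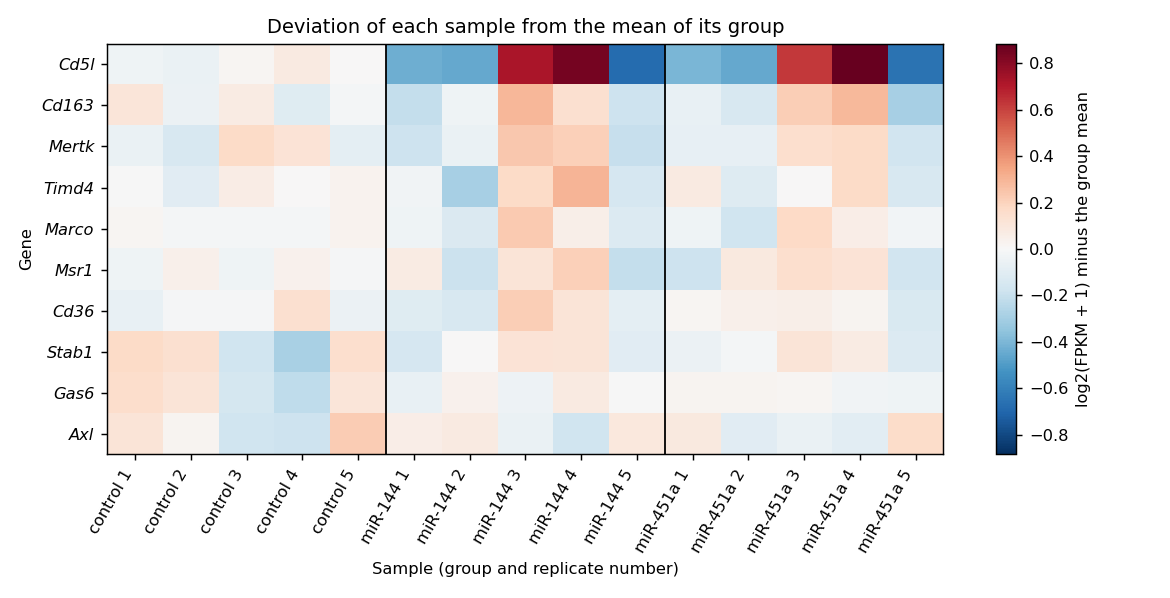
Deviation of each sample from the mean of its group on the log2(FPKM + 1) scale (colour, red above and blue below), for the 10 genes (rows) and 15 samples (columns, with lines between groups). Samples 3 and 4 of both miRNA groups are red for Cd5l, Cd163 and Mertk, and control samples 3 and 4 are blue for Stab1, Gas6 and Axl.

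Some genes of other lists had the same highest samples in both miRNA groups, 3 of 15 other scavenger receptors, 2 of 18 phosphatidylserine receptors and bridging proteins, 1 of 17 engulfment genes, 0 of 8 do-not-eat-me signals and sheddases and 5 of 12 nuclear receptors and factors. Among 15 other scavenger receptors these were Scarb2, Stab2 and Mrc1, and among 12 nuclear receptors and factors they included Rxra, Maf, Spic and Abca1, of which Spic and Abca1 had this order in all 3 groups. Spic, a transcription factor of iron-recycling macrophages, had 0.421, 0.556, 0.917, 1.10 and 0.393 FPKM in miR-144 samples. Of the 9 Kupffer cell markers it held for Slc40a1, Spic and Il18bp, and of the other lists of cell markers for Adgre1, F13a1, Csf3r, Stab2, Ighm and Pf4. Pf4, a platelet chemokine also made by some macrophages, had 4.77, 4.82, 8.77, 10.9 and 4.0 FPKM in miR-144 samples. Implied depth was 24.5 and 24.1 M fragments in control, 22.8 and 22.8 M in miR-144, and 21.6 and 30.6 M in miR-451a samples 3 and 4, the last being the highest of all 15 samples. The part of depth and of these markers in the Cd5l pattern was not tested.

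By likeness over the 15 samples, measured as the Pearson r of log2(FPKM + 1) among expressed genes, Mertk was nearest to Abca1 (r = 0.987) and Paox (r = 0.984), and Cd5l to Glul (r = 0.994) and Abca1 (r = 0.992). Abca1 is a cholesterol exporter and Glul makes glutamine. Axl was nearest to Dock8 and Fmnl3 (both r = 0.998), Gas6 to Rcsd1 (r = 0.998) and Parp1 (r = 0.997), and Stab1 to Sgsh and Rcsd1 (both r = 0.999). Cd163 was nearest to Rnf150 and Dab2 (both r = 0.997), and Cd36 to Tfrc and Itgax (both r = 0.998), the transferrin receptor and the integrin CD11c. Msr1 was close to Dynlt1f (r = 0.965), and Marco was nearest to Cp (r = 0.946) and Nmd3 (r = 0.938), and Timd4 to Acp2 (r = 0.932) and Dbp (r = 0.930). Likeness of this kind is set mainly by the step between control and miRNA groups, and the number of genes with r over 0.9 ran from 13 for Timd4 to 2661 for Gas6.

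Other genes of scavenging and engulfment, listed by function, moved in both directions. Their counts are to be read beside expressed genes, of which 44.1% were called higher and 18.6% lower in miR-144 TAMs. In miR-451a TAMs these shares were 45.3% and 18.8%. Over all genes above 0 they were 23.1% and 9.65% (miR-144) and 24.5% and 9.69% (miR-451a). Of 15 other scavenger receptors, 6 were called higher and 3 lower in miR-144 TAMs, and 7 higher and 3 lower in miR-451a TAMs, with medians of 0.04 and 0.05. The further higher call in miR-451a TAMs was that of Megf10, at 0.0523 against 0.0133 FPKM with overlapping groups (limma, adjusted p = 0.026). It was lost in 7 of 23 alternatives, among them quantile normalization (limma, adjusted p = 0.0866) and the omission of control sample 4 or 5 or of miR-451a sample 1, 3 or 4 (limma, adjusted p = 0.0571 to 0.0695). Cxcl16, a scavenger receptor for phosphatidylserine and oxidised lipoproteins, rose from a mean of 36.9 to 76.7 and 73.5 FPKM, and Scarf1 from 10.3 to 19.0 and 19.0 FPKM. Mrc1, the mannose receptor CD206, fell from 135.3 to 75.9 and 85.0 FPKM, a difference of -0.87 (limma, adjusted p = 0.00248) and -0.70 (limma, adjusted p = 0.0108). Cd68, the lysosomal macrosialin, fell from 1444 to 919.3 and 910.4 FPKM.

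**Figure D4:**
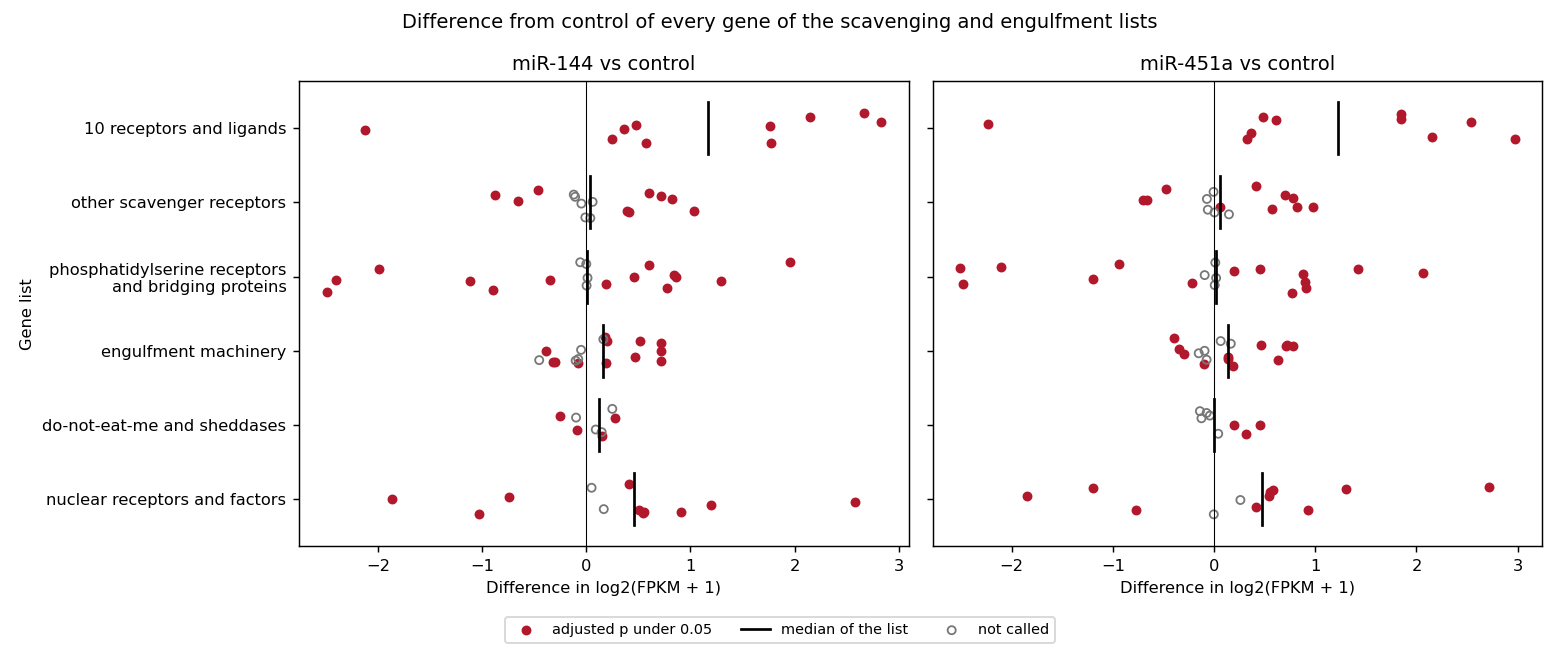
Difference in log2(FPKM + 1) from control of each gene (points) in the 10 receptors and ligands and in 5 further lists of scavenging and engulfment genes, for miR-144 (left) and miR-451a (right) TAMs. Filled points are called, open points are not, and the vertical bars are list medians, which lie at 1.17 and 1.23 for the 10 genes and between -0.001 and 0.48 for the further lists. All lists were chosen with earlier results of these data known.

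Of 18 phosphatidylserine receptors and bridging proteins, 8 were called higher and 6 lower in each comparison, with medians of 0.01 and 0.02. For expressed genes the shares were 44.1% higher and 18.6% lower (miR-144) and 45.3% and 18.8% (miR-451a). One of the lower calls, that of Cd300lf in miR-451a TAMs (5.01 against 4.16 FPKM, limma, adjusted p = 0.0344), was lost in 10 of 24 alternatives, among them TPM rescaling (limma, adjusted p = 0.167) and the omission of any 1 of control samples 1 to 4 or miR-451a samples 1, 4 and 5 (limma, adjusted p = 0.0602 to 0.0891). The Cd300lf call in miR-144 TAMs, a difference of -0.345, was lost over replicates 1, 2 and 5, where fewer samples were fitted and the difference was -0.308 (limma, adjusted p = 0.111). The complement component C1qa, which bridges dying cells to phagocytes, rose from a mean of 253.1 to 986.1 and 1065 FPKM, and Havcr2, which encodes Tim-3, from 2.10 to 6.59 and 7.26 FPKM. The integrin Itgb3 fell from 18.6 to 2.48 and 2.45 FPKM, and the annexin Anxa1 from 588.1 to 110.1 and 104.2 FPKM. Mfge8, a bridging protein for the integrin formed by Itgav and Itgb3, fell from 160.0 to 39.4 and 36.4 FPKM, whereas Itgav rose from 5.61 to 9.06 and 10.6 FPKM. Itgb5, another integrin of this list, rose from 76.5 to 105.3 and 105.0 FPKM and was called higher in both comparisons.

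Of 17 genes of the engulfment machinery, 8 were called higher and 4 lower in each comparison, with medians of 0.16 and 0.14. For expressed genes the shares were 44.1% higher and 18.6% lower (miR-144) and 45.3% and 18.8% (miR-451a). After median centring or quantile normalization 5 of the 17 were higher, since Crkl, Becn1 and Rab5a were no longer called. Of the lower calls, that of Lamp1 was lost after quantile normalization and that of Lamp2 after TPM rescaling (limma, adjusted p = 0.807 and 0.622) in both comparisons, and in miR-144 TAMs Lamp2 was also lost without control sample 2 or 4 or miR-144 sample 4 (limma, adjusted p = 0.0647 to 0.0724). Dock1 rose from 3.40 to 6.25 and 6.58 FPKM, Rac2 from 67.4 to 111.2 and 111.3 FPKM, and Elmo1, with nearly the same difference as Rac2, from 4.0 to 7.20 and 7.20 FPKM. Dock2 fell from 56.5 to 43.0 and 42.7 FPKM, and Elmo2 from 16.2 to 13 and 12.5 FPKM. Rac1 and Crk were not called in either comparison. Crk ran from 9.61 to 25.8 FPKM within the control group, and Rac1 had a pair of separate levels within every group. Rac1 had 56.6, 27.2, 57.1, 27.0 and 59.7 FPKM in control samples, and in miR-144 samples its range was 33.8 to 80.7 FPKM. Whether the quantification of Rac1, Crk, Sirpa and Itgam gave rise to such separate levels was not tested, so the absence of a call for Rac1 and Crk rests on values that are in doubt.

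Of 8 do-not-eat-me signals and sheddases, which hold back uptake or cut receptors such as Mertk from the surface, 2 were called higher and 2 lower in miR-144 TAMs, and 3 higher and 0 lower in miR-451a TAMs. For expressed genes the shares were 44.1% higher and 18.6% lower (miR-144) and 45.3% and 18.8% (miR-451a). Lilrb4a rose from a mean of 71.5 to 86.6 and 89.3 FPKM and Siglecg from 0.0339 to 0.149 and 0.183 FPKM. The symbol Lilrb4a stands for 2 gene identifiers in the data, and its values are those of ENSMUSG00000112148 alone. In miR-144 TAMs the Lilrb4a call was lost after median centring (limma, adjusted p = 0.0545), and that of Siglecg over replicates 1, 2 and 5 (limma, adjusted p = 0.0706), where fewer samples were fitted and the Siglecg difference was 0.165. Cd47 was at 26.5 FPKM in control, 31.8 in miR-144 and 36.1 in miR-451a TAMs and was called higher in miR-451a TAMs alone (limma, adjusted p = 0.026 against 0.238), and the test of miR-451a against miR-144 did not call it. Single samples stood low for Cd47. In miR-144 TAMs sample 4 had 21.2 FPKM and the others 32.8 to 35.8. Control sample 2 had 18.3 FPKM and the other controls 27.7 to 29.9. Whether the quantification gave rise to these low values was not tested. The Cd47 call was lost without control sample 2 or without miR-451a sample 2 or 3 (limma, adjusted p = 0.0528 to 0.0623), and after median centring (limma, adjusted p = 0.134). In miR-144 TAMs Pecam1 was at 0.126 against 0.197 FPKM in control (limma, adjusted p = 0.033) and the sheddase Adam10 at 26.9 against 31.9 FPKM (limma, adjusted p = 0.0242). When only these groups were fitted both calls were lost (limma, adjusted p = 0.0522 and 0.0717). The Adam10 call was also lost without control sample 2 (limma, adjusted p = 0.0613), and that of Pecam1 without any 1 of control samples 1, 2, 3 and 5 and miR-144 samples 2, 4 and 5 (limma, adjusted p = 0.0617 to 0.0865). Adam17, the sheddase known to cleave Mertk, was called in neither comparison, with 41.3, 44.4 and 42.6 FPKM. Sirpa, the receptor of Cd47, was not called and had 118 to 323 FPKM in control and 131 to 361 FPKM in miR-451a samples, with a pair of separate levels as for Rac1.

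Of 12 nuclear receptors and factors that regulate such genes in macrophages, 7 were called higher and 3 lower in each comparison, with medians of 0.46 and 0.48. For expressed genes the shares were 44.1% higher and 18.6% lower (miR-144) and 45.3% and 18.8% (miR-451a). Maf, a transcription factor of resident macrophages, rose from 7.67 to 51.1 and 56.1 FPKM, and Id3, a factor of Kupffer cell identity, from 2.30 to 6.59 and 7.14 FPKM. Pparg, the lipid-sensing receptor known to induce Cd36, fell from 37.4 to 9.55 and 9.60 FPKM, and Nr1h3, which encodes LXR alpha, from 18.4 to 8.45 and 7.46 FPKM. Cd36 and Pparg were thus lower in the same samples, as were many other genes, and a link between them was not tested. Abca1, a target of LXR, rose from 48.0 to 92.3 and 92.9 FPKM. Spic and Nr3c1 were called higher in both comparisons, but neither call held after median centring. Leaving out any 1 of control samples 1, 2, 3 and 5 or of samples 3 and 4 of the miRNA group ended the Spic calls (limma, adjusted p = 0.0621 to 0.0946), and leaving out control sample 5 or miR-144 sample 1, 3, 4 or 5 ended that of Nr3c1 in miR-144 TAMs (limma, adjusted p = 0.0543 to 0.0711).

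Markers of other cells moved with the groups, and their part in the results was not tested. The summed level of 9 Kupffer cell markers was 29.1 to 37.1 FPKM in control, 50.8 to 58.0 in miR-144 and 51.7 to 55.6 in miR-451a samples, with Clec4f at 0 in all 15 samples and Vsig4 at a mean of 0.118, 0.376 and 0.291 FPKM. The higher sums came mainly from Slc40a1, at 2.40, 19.5 and 20.3 FPKM, and Id3, while Folr2 (23.8, 23.3 and 21.4 FPKM) and Il18bp were not called. The sum of 8 alveolar macrophage markers was 4048 to 5819 FPKM in control samples, nearly all of it Chil3, and 0.733 to 1.23 and 0.716 to 1.71 FPKM in miR-144 and miR-451a samples, with Krt79, Fabp1 and Ear1 at 0 in all 15. Of the 5 that were tested 4 were called lower in both comparisons, Chil3, Ear2 (35.6 against 0.230 and 0.339 FPKM), Siglecf (2.26 against 0.357 and 0.355 FPKM) and Car4 (1.24 FPKM in control and listed at 0 in the miRNA groups). The sum of 7 peritoneal macrophage markers was 117 to 156, 4.01 to 6.06 and 4.13 to 5.76 FPKM, of which F10 made up most in control. Chil3 differed by -11.78 and -11.70, more than any of the 10 genes.

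The sum of 8 macrophage markers was 8642 to 9457 FPKM in control, 14639 to 16523 in miR-144 and 14339 to 15525 in miR-451a samples, most of it Lyz2 (means of 6894, 13170 and 12580 FPKM). Of the 8, 7 were called higher and 1 lower in miR-144 TAMs and 6 higher and 1 lower in miR-451a TAMs, the lower one being Cd68, described above. Adgre1, which encodes F4/80, one of the surface markers by which the study gates TAMs, rose from a mean of 137.0 to 361.0 and 354.3 FPKM. Itgam, which encodes CD11b, the other such marker, varied widely within groups, from 9.99 to 38.8 FPKM in control, 43.9 to 76.1 in miR-144 and 24.6 to 74.0 in miR-451a samples, and was called higher in miR-144 TAMs (limma, adjusted p = 0.0121) but not in miR-451a TAMs (limma, adjusted p = 0.0593). The symbol Itgam stands for 2 gene identifiers in the data, and these values are those of ENSMUSG00000030786 alone. The sum of 6 monocyte markers was 7.48 to 12.1, 18.3 to 25.6 and 21.6 to 28.7 FPKM, and that of 10 neutrophil markers 65.0 to 79.2, 46.3 to 52.3 and 44.2 to 53.2 FPKM, with Retnlg at 0. Csf3r made up nearly all of the neutrophil sum (means of 70.4, 49.0 and 48.3 FPKM), and S100a9 had means of 0, 0.138 and 0.157 FPKM. The 8 fibroblast and stellate markers summed to 129 to 165, 214 to 295 and 249 to 322 FPKM, with Lrat at 0 in all samples. The 11 T and B cell markers summed to 8.61 to 11.1, 75.9 to 92.0 and 83.3 to 100.1 FPKM, nearly all of it Ighm, with Cd3e and Cd3g at 0. The 8 platelet and red cell markers summed to 9.89 to 17.6, 5.69 to 12.5 and 4.59 to 14.4 FPKM, with Hbb-bt at 0. Pf4 made up most of this sum and was not called (12.5, 6.65 and 7.32 FPKM), and 2 of the 8 were called higher and 0 lower in each comparison, among them Itga2b (0.248, 0.390 and 0.505 FPKM). Of 8 hepatocyte and hepatoma markers 7 were at 0 in all samples, and the sum stayed between 0.0753 and 0.253 FPKM. The 6 dendritic cell markers summed to 0.300 to 0.420, 0.667 to 0.830 and 0.548 to 0.851 FPKM, with none at 0 in all samples.

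The promoters of the 10 genes were searched for short motifs, as a description, because 9 genes moved one way and Cd36 the other. RefSeq promoters (GRCm38.p6, 250 bases before to 50 after the start) were at hand for 9 of the 10, all but Msr1. Each motif was searched on both strands, and no match of one motif overlapped that of another in these 9. The GC box GGGCGG was found in 4 of 9, Mertk, Axl, Gas6 and Cd36, and in 35.7% of all 32851 promoters. The MAF half-site TGCTGAC was found in 1 of 9, Timd4, and in 4.67% of all promoters. The PU.1 site GAGGAAGT, the AP-1 site TGANTCA, the TATA box TATAAA and the E-box CACGTG were found in 0 of 9 and in 3.20%, 7.81%, 13.6% and 7.15% of all promoters, and this says only that these letters were not in these windows. One match per gene is shown, on the strand of the gene, with the motif in capitals on either strand. The Cd36 window lies within the annotated gene, downstream of its outermost start, and so stands for 1 internal start alone. A match is a description and not a site of binding.
Gas6 at chr8:13494584-13494613, minus strand: cccagctcggccCCGCCCccaaaggccccg
Axl at chr7:25788726-25788755, minus strand: tggggccctagtGGGCGGaggcagaggggg
Mertk at chr2:128698751-128698780, plus strand: atcctccccttcCCGCCCcctcctccagtt
Cd36 at chr5:17835988-17836017, minus strand: aaagtatagaagGGGCGGctcaaatcaggg
Timd4 at chr11:46810743-46810772, plus strand: cgtcccaccctGTCAGCAggaattgtgata

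The promoters differed in base composition. The share of G and C was 66.0% for Mertk, 60.3% for Axl, 58.3% for Gas6 and 57.3% for Stab1, against 38.0% for Cd163, 43.0% for Cd36, 46.3% for Cd5l and 47.3% for Marco, with 50.7% for Timd4 and a median of 52.7% over all promoters. Those of Cd5l and Marco hold 0 CpG pairs, and those of Gas6 and Mertk 17 and 14, with a median of 7 over all promoters.

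By the GENCODE M21 annotation (GRCm38, which may not be the build of the authors), Gas6 (ENSMUSG00000031451) lies at chr8:13465374-13494490 and Axl (ENSMUSG00000002602) at chr7:25757273-25788705, both on the minus strand. Mertk (ENSMUSG00000014361) lies at chr2:128698956-128802894 and Timd4 (ENSMUSG00000055546) at chr11:46810800-46844332, both on the plus strand. Stab1 (ENSMUSG00000042286) lies at chr14:31139013-31168641, Msr1 (ENSMUSG00000025044) at chr8:39581685-39642673, Marco (ENSMUSG00000026390) at chr1:120474538-120505024 and Cd36 (ENSMUSG00000002944) at chr5:17781690-17888801, all on the minus strand. Cd163 (ENSMUSG00000008845) lies at chr6:124304656-124330527 and Cd5l (ENSMUSG00000015854) at chr3:87357881-87371073, both on the plus strand. FPKM is a value over the exons of a gene, so no part of these genes was measured on its own.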

How the data were processed

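Per the labels and the authors' methods, TAMs were sorted by FACS, RNA was extracted with Trizol and sequenced on an Illumina instrument. The submitters' processing notes name FastQC 0.11.2, STAR and StringTie, with no role, order or build, and the annotation and strand setting are not given in the sources used here. The authors deposited FPKM per gene and sample in 1 table, and 99.67% of its gene identifiers occur in GENCODE M21. Groups and replicate numbers came from the labels.

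FPKM was transformed as log2(FPKM + 1), with a pseudocount of 1 and no filter, and the 3 groups were fitted together with limma 3.58.1 in R 4.3.3 (mean-variance trend, Benjamini-Hochberg adjustment over all 29540 genes above 0). This fit was tested on simulated data with known changes. Counts were not recovered, so no count model was run. The floor was 3 fragments per sample. Alternatives were a pseudocount of 0.1, a minimum mean of 1 FPKM, median centring (scaling each sample by its median over those genes), quantile normalization, TPM rescaling, a replicate block, no trend, fits of only the 2 groups compared, each sample left out in turn and, chosen after seeing the data, replicates 1, 2 and 5 alone. Other steps used Python 3.11.15, numpy 2.4.6, pandas 2.3.3 and matplotlib 3.10.9.

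The 10 genes and the lists were chosen with earlier results of these data known. From each list the text names the genes called in both comparisons with the 2 largest and 2 smallest differences, the marker genes, the genes that share the sample order of Cd5l, and others chosen after their values were seen, namely Elmo1, Cd300lf, Megf10, Lamp1, Lamp2, Crkl, Becn1, Rab5a, Mfge8, Itgav, Itgb5, Tyro3, Pros1, Stab2, Rac1, Crk, Adam10, Adam17, Sirpa, Pecam1, Cd47, Abca1, Spic and Nr3c1. Proteins and counts of reads were not analysed here, and the values of some genes are not reported here, while the counts over lists include them.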

Additional observations from a re-analysis of the deposited data

Results flagged for a closer look

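In groups of 5 samples, a sample was marked when its gap to the nearest other sample exceeded Dixon's 95% critical value as a share of the range. Of 30 groups of values (10 genes in 3 groups) 2 were marked, where chance marks about 1 in 20. Both concern Cd36. Control sample 4 had 220.7 FPKM and its nearest neighbour 198.6, a gap of 0.740 of the range. Sample 5 of the miR-451a group had 37.96 FPKM and its nearest neighbour 42.17, a gap of 0.786 of the range. Control sample 4 thus lies farther from the miRNA groups, and miR-451a sample 5 farther from control, than the other samples of its group.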

How the results depend on the processing

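Of the fold changes of the 10 genes against control, none changed direction in any alternative, and the calls held in all but 2. These were the miR-144 differences of Timd4 (0.23) and Marco (0.15) over replicates 1, 2 and 5. That subset has fewer samples and leaves out the highest miR-144 values of both genes. It was chosen after the Cd5l values were seen, so the results of Cd5l, Timd4 and Marco there are no check. Same-numbered samples deviated together weakly (mean r = 0.08, over 0.1 in 8 of 15 pairs), so the numbers were not taken to pair the samples. With the replicate block, 10, 10 and 0 of the 10 genes were called, as without it, and 9635, 10030 and 0 of all genes, while the calls of Cd47 in miR-451a TAMs and of Nr3c1 in miR-144 TAMs were lost. For miR-451a against miR-144, with no call, signs turned for Timd4 (-0.005 after quantile normalization), Axl (-0.008 after median centring, -0.024 over replicates 1, 2 and 5) and Msr1 (-0.006 after median centring, -0.001 after quantile normalization). With 1 sample left out, the ranges there were -0.068 to 0.081 for Timd4, -0.01 to 0.1 for Mertk, -0.042 to 0.027 for Axl, -0.048 to 0.057 for Msr1 and -0.345 to 0.086 for Cd5l. Over all genes, 1 was called in that comparison without the trend, 1 over replicates 1, 2 and 5, and 0 to 1 with a sample left out. Engulfment genes called higher numbered 5 after median centring and 5 after quantile normalization in both comparisons. Of the do-not-eat-me list in miR-144 TAMs, 1 was higher with the minimum mean of 1 FPKM, 1 after median centring and 1 over replicates 1, 2 and 5. For that list and comparison, 1 was lower with the pseudocount of 0.1, 1 with the minimum mean, 0 after rescaling to TPM, 0 with only 2 groups fitted, 0 over replicates 1, 2 and 5, and 0 to 2 with a sample left out. In miR-451a TAMs 1 was lower after median centring, 1 after quantile normalization, 1 with only 2 groups fitted, and 0 to 1 with a sample left out. The cause of these shifts was not tested. Of the 49 calls among the 5 further lists, 10 were lost in at least 1 scaling in each comparison and 0 changed sign. Depth limits Timd4 and Marco, which rest on few fragments.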
